A study of Homo sapiens with 5 samples.

Results

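The tumour necrosis factor (TNF) ligand and receptor superfamilies were examined as 36 genes of the 33857 listed in the deposited expression table of H9 cells, 17558 of which are protein-coding. A gene was taken when it was protein-coding and its name started with TNFSF or TNFRSF, or when it was one of the members with a name of its own (LTB, CD40, FAS, CD27, CD70, NGFR, LTBR, EDAR and RELT). The 36 genes comprise 11 ligands and 25 receptors. The names TNF, LTA, FASLG and CD40LG also belong to the rule, but these 4 matched no row of the table used here, and 2 non-coding genes with matching names were left out.

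Ligands of this family are mostly trimeric proteins held in the cell membrane or cut from it, and each binds 1 or a few receptors on neighbouring cells. Death domain receptors can recruit FADD and caspases and so kill the cell, other receptors bind TRAF adaptors and pass the signal to NF-kB and stress kinases, and decoy receptors bind a ligand without passing the signal on. The families are best known for T cell co-stimulation, lymphoid organ formation, bone turnover and cell death, and human embryonic stem cells are not an immune cell type.

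Poly(A+) RNA was sequenced from 5 samples of H9, a human embryonic stem cell line kept in mTeSR medium on Matrigel. The 2 mock control samples are single-cell clones that received the CRISPR/Cas9 vector eCRISPR without a guide, and the 3 CFIm25-m samples are clones from a different guide RNA each, with reduced CFIm25 protein and a small deletion at its N-terminus. The labels write control KO and CFIm25 KO for these groups, which are called mock clones and edited clones here. All 5 went through the vector and puromycin selection, and each CFIm25-m sample is 1 clone, so clone and edit cannot be told apart within a sample. CFIm25, encoded by NUDT21, is a subunit of the complex that chooses where mRNAs are cleaved and polyadenylated, and the comparison asks which mRNA levels differ between edited and mock cells.

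Between 18754108 and 23372391 reads per sample were recovered from the normalized counts. NUDT21 was lower in every edited clone (log2 difference -0.86, adjusted p = 0.00431, limma-trend), and its mRNA was still present. This call was lost when either mock clone was left out (adjusted p = 0.0854 and 0.0722). Of 8 pluripotent stem cell markers, 8 were tested and 0 were called by limma-trend, edgeR or DESeq2, with 2 at an unadjusted p under 0.05 in limma-trend. Their summed level was between 2436 and 2539 RPKM in all 5 samples. RPKM is the number of recovered reads per kilobase of gene length, scaled to 1000000 recovered reads. ZFP42 (rex1), which the paper calls a pluripotency marker and reports as lower in CFIm25-mutant cells, was not among these 8 markers. Of 10 leukocyte markers 8 were listed, and their summed level was between 2.58 and 3.32 RPKM. PTPRC, the pan-leukocyte gene, had 0 reads in both mock clones. Since 0 of all listed genes were without reads in all 5 samples, PTPRC was read in at least 1 edited clone. Of the 8 listed leukocyte markers, 3 were tested and 0 were called by limma-trend, edgeR or DESeq2. In limma-trend 1 was higher at an unadjusted p under 0.05, with a log2 difference of 0.80. The summed level of the listed germ layer markers was between 0.816 and 1.12 RPKM. Of these markers 3 were tested, with log2 differences from -0.99 to 0.34, and 0 were called by limma-trend, edgeR or DESeq2. Of 8 stromal and endothelial markers 4 were tested, 0 were called by limma-trend or edgeR and 1, COL1A1, was called lower by DESeq2, with 2 at an unadjusted p under 0.05 in limma-trend. Their sum was 51.7 and 54.3 RPKM in the mock clones, against 42.7, 51.6 and 44.5 in the edited clones. The part of this sum in the results below was not tested. Over all genes tested with limma-trend, 7.15% were lower and 7.99% higher at an unadjusted p under 0.05. DESeq2 called 279 of them lower and 349 higher at an adjusted p under 0.05.

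Of the 36 genes, 27 had 2 or more samples with a normalized count of 10 or above and were tested with limma-trend on the log2(value + 1) scale, as part of all 19232 genes that passed this filter. TNFSF9 passed an adjusted p of 0.05 as the 1 member called lower of 27, and 0 members were called higher. Over all tested genes, 0.936% were called lower and 0.941% higher. With edgeR and with DESeq2 on the recovered reads, 1 member was lower and 0 were higher as well. At an unadjusted p under 0.05, 2 members were lower (7.15% of all tested genes were) and 4 were higher (7.99% of all). The groups did not overlap for 5 members that were lower (19.8% of all tested genes) and 5 that were higher (17.0% of all). The median log2 difference of the 27 members was -0.10, beside -0.01 over all tested genes and -0.03 over all tested protein-coding genes. By clone, the members' median difference from the mock clones was -0.10, -0.02 and -0.08 in edited clones 1, 2 and 3. Beside the shares over all tested genes, 5 of 27 members in each direction is near what the whole table gave, and TNFSF9 is the member that stands past the adjusted threshold.

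**Figure D1:**
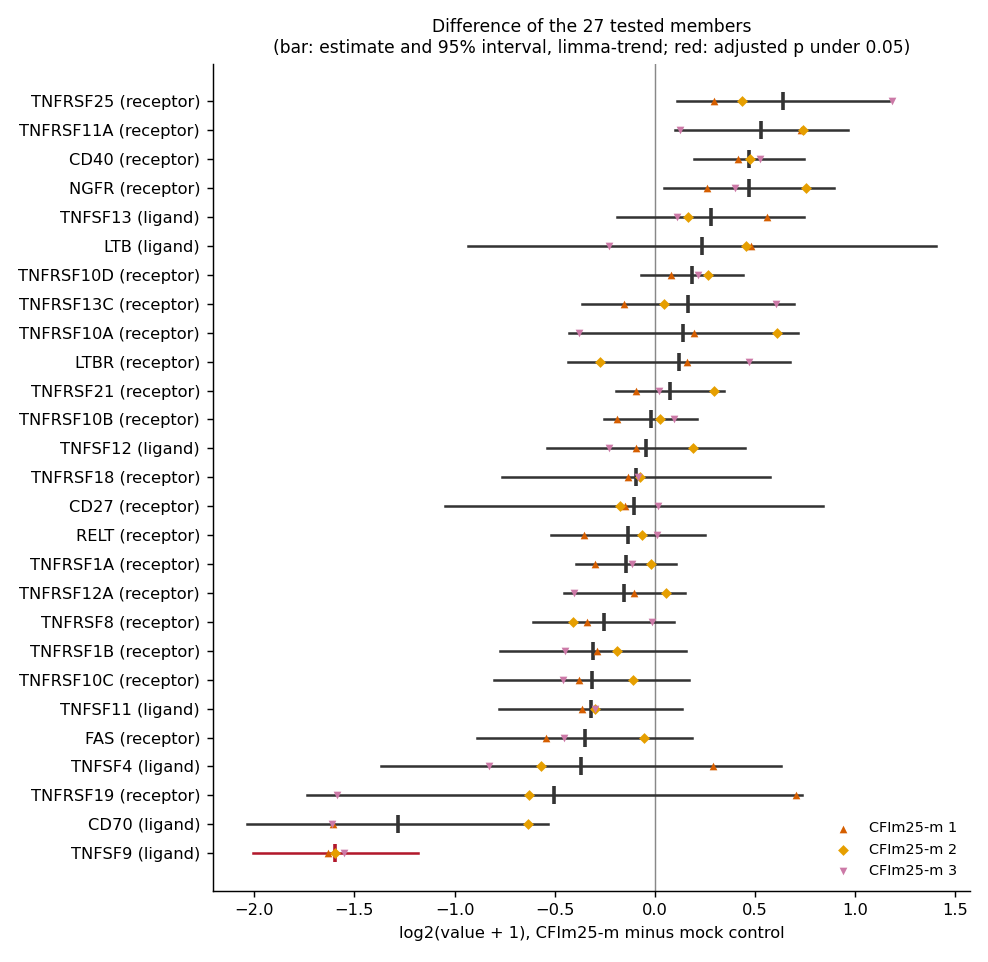
Each row is 1 of the 27 tested members, the horizontal axis is the difference in log2(value + 1) between CFIm25-m and mock control, the bar and tick give the limma-trend estimate with its 95% interval, and the symbols give each CFIm25-m clone against the mean of the mock clones. The interval of TNFSF9, from -2.01 to -1.18, is drawn in red since it is the 1 member past the adjusted threshold, and its 3 edited clones lie together, while the edited clones of TNFRSF19 and CD70 are spread.

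TNFSF9 encodes 4-1BB ligand, which co-stimulates T cells through its receptor TNFRSF9 (CD137). The gene (ENSG00000125657) is on chromosome 19, plus strand, between 6530999 and 6535928 (GRCh38), and no other listed gene overlaps it. Its promoter is shown because TNFSF9 is the member called as changed. The window of 250 bases before to 50 after the RefSeq start, at chr19:6530776-6531075 on the plus strand of GRCh38.p14, reads as follows, with a TATA box (TATAAA) and GC boxes (GGGCGG) in capitals.
TNFSF9 promoter: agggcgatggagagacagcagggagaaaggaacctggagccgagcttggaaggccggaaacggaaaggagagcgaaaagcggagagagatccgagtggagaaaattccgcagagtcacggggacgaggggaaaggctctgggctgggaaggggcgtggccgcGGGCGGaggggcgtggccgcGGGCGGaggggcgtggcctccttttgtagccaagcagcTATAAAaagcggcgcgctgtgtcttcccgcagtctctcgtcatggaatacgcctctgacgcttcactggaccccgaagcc

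The RefSeq start lies 27 bases after the gene's start in the deposited table. The TATA box covers positions -30 to -25 relative to the RefSeq start, and the GC boxes begin at -88 and -68. A 32-base run, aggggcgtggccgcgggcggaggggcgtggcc, occurs in 2 overlapping copies that begin 102 and 82 bases before the start, and each copy holds 1 GC box. On either strand, TATAAA occurs in 11.5% of the 35116 promoters of the same length, GGGCGG in 45.0%, CCAAT in 34.6% and the kB motif GGNNTTTCC in 6.26%. The TNFSF9 window holds neither CCAAT nor GGNNTTTCC. Its GC content was 63.3%, beside a median of 58.7% over all promoters. Of the 36 members, 23 had a promoter entry, and of their 32 promoters 4 held TATAAA, 18 GGGCGG, 7 CCAAT and 4 GGNNTTTCC. These are matches of letters and not known binding sites.

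The normalized count of TNFSF9 was 217 in mock clone 1 and 283 in mock clone 2, against 79.2, 81.0 and 83.7 in edited clones 1, 2 and 3. The 3 edited clones were nearly level with each other and all lay well under both mock clones, so the groups did not overlap. The mean fell from 250 ± 46.7 (SD, n = 2) to 81.3 ± 2.26 (SD, n = 3), a log2 difference of -1.59 (standard error 0.19, 95% interval -2.01 to -1.18, adjusted p = 0.0031, limma-trend). On the scale of log2(value + 1) this is 3.02-fold lower, with an interval from 2.27 to 4.02. These values rest on 188 and 293 reads for the mock clones and on 79, 90 and 87 reads for the edited clones. Without mock clone 2, which held the highest value, the log2 difference was -1.40 and its adjusted p was 0.0868. In a bulk sample, fewer cells that express a gene and less RNA per cell cannot be told apart.

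Per length, TNFSF9 was the ligand with the most reads in the mock clones, at 6.02 and 7.83 RPKM, against 2.29, 2.31 and 2.50 in the edited clones. Its receptor TNFRSF9 had 0 reads in both mock clones and in edited clones 1 and 3, and 2 reads in edited clone 2. A count of 0 allows up to 3 reads, or a normalized count between 2.70 and 3.46 depending on the sample. The ligand of this pair was thus measured, and its receptor stayed at 0 to 2 reads per sample at this depth.

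The study also designed primers for TNFSF9, which are shown to place them in the transcript.
TNFSF9-F1: ggctggagtctactatgtcttct
TNFSF9-R1: acctcggtgaagggagtcc
In the GENCODE transcript TNFSF9-201, which has 1634 bases in 3 exons and a coding region from position 12 to 776, the forward primer covers positions 422 to 444 and the reverse primer pairs with positions 750 to 768. Both lie in exon 3 within the coding region, and they bound a product of 347 bases. No measurement made with these primers is used here.

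CD70, which activated lymphocytes carry as the ligand of CD27, is the neighbouring family gene on chromosome 19 (ENSG00000125726, minus strand, 6583183 to 6604103), 47255 bases from TNFSF9. Its normalized count was 76.1 and 93.6 in the mock clones, against 27.1, 54.0 and 26.9 in edited clones 1, 2 and 3. The groups did not overlap, and edited clone 2 lay between the mock clones and the other edited clones. The group means were 84.8 ± 12.4 (SD, n = 2) and 36.0 ± 15.6 (SD, n = 3), a log2 difference of -1.28 (standard error 0.34, 95% interval -2.04 to -0.53, adjusted p = 0.1, limma-trend), which did not pass the threshold. Without edited clone 2 the log2 difference was -1.61 and the adjusted p was 0.0412 (limma-trend). Leaving out edited clone 1 or 3 instead gave -1.12 each, with an adjusted p of 0.258 and 0.0749. CD27, its receptor, had a log2 difference of -0.10 (adjusted p = 0.934) on 8 to 17 reads per sample, and it overlaps CD27-AS1 along nearly its whole length on the opposite strand.

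Around TNFSF9, 12 other genes were tested, between 28.2 and 212 kb away. Of these 10 had a negative log2 difference and 0 were called by limma-trend, with 3 at an unadjusted p under 0.05 and the lowest adjusted p at 0.0884. EdgeR called 0 of them, and DESeq2, which called 279 lower and 349 higher over all tested genes, called 1. This last gene is TUBB4A, a beta tubulin gene 28151 bases from TNFSF9, with a log2 difference of -0.49 (adjusted p = 0.0884, limma-trend). TNFSF14 (LIGHT), the third family gene of this stretch, lies 125325 bases away and was below the filter, with 1 to 15 reads per sample. Beyond it, the complement gene C3 had a log2 difference of 0.20 (adjusted p = 0.342). The median log2 difference of the 10 tested genes nearest to TNFSF9, which include CD70, was -0.19, beside -0.01 over all tested genes. Over all tested genes, 9953 of 19232 had a negative log2 difference. At an unadjusted p under 0.05 in limma-trend, 7.15% of all tested genes were lower and 7.99% higher.

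**Figure D2:**
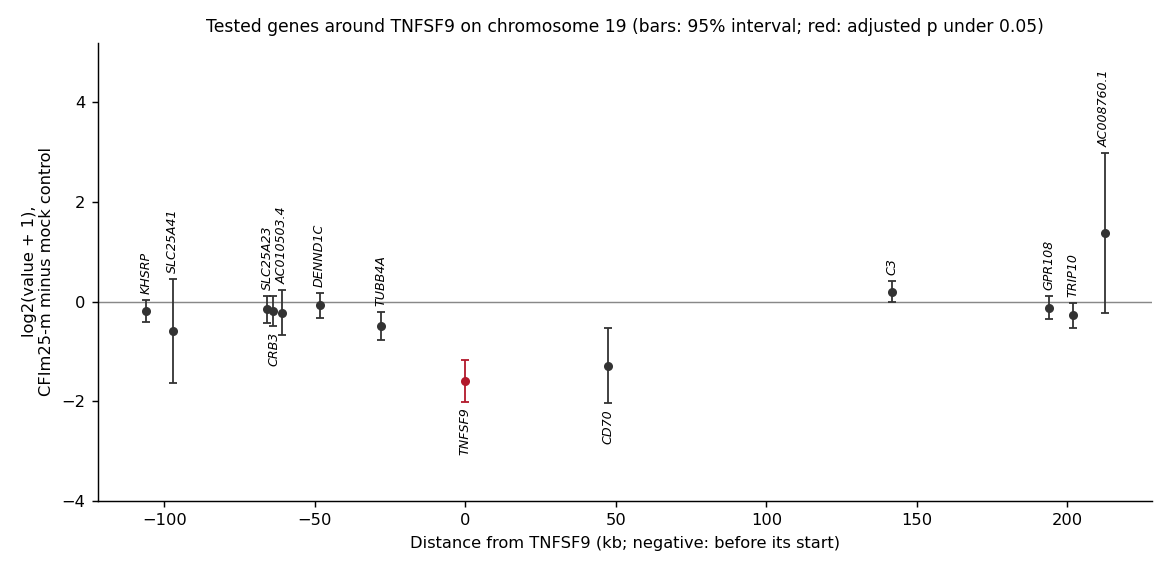
Points are the tested genes around TNFSF9, placed by their distance from it in kb, with the log2 difference between CFIm25-m and mock control and its 95% interval on the vertical axis. TNFSF9 at -1.59 and CD70 at -1.28 lie below the other genes, and TNFSF9 alone is drawn in red for an adjusted p under 0.05.

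Among the other ligands, TNFSF12 (TWEAK) was counted at 76.1 and 91.7 in the mock clones, against 78.2, 95.4 and 71.2 in the edited clones. The groups overlapped fully, with a log2 difference of -0.04 (95% interval -0.54 to 0.45). TNFSF13 (APRIL), a B cell survival factor that lies next to TNFSF12 on chromosome 17, had 88.7 and 85.9 in the mock clones, against 129, 98.1 and 94.3 in the edited clones. Its edited clones all lay above the mock clones, but the log2 difference of 0.28 did not pass the test (adjusted p = 0.563). The 2 genes follow each other on the same strand and a read-through transcript of them is known, so the split of reads between them is uncertain.

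TNFSF11 (RANKL), which drives the formation of osteoclasts, had 84.1 and 86.9 in the mock clones, against 66.1, 69.3 and 69.3 in the edited clones. The groups did not overlap, and the log2 difference was -0.32 (95% interval -0.78 to 0.13, adjusted p = 0.494). LTB, a subunit of lymphotoxin, and TNFSF4 (OX40 ligand) were each read 8 to 24 times per sample, and both had an interval that reached beyond 1 log2 unit. TNFSF10 (TRAIL), TNFSF13B (BAFF), TNFSF14 and TNFSF15 were below the filter, with 0 to 15 reads per sample. The 7 tested ligands had a median log2 difference of -0.32, with 5 negative and 2 positive. By clone, their median difference from the mock clones was -0.09, -0.30 and -0.30 in edited clones 1, 2 and 3. The summed level of all 11 ligands was 14.7 and 16.6 RPKM in the mock clones, against 10.1, 10.6 and 9.38 in the edited clones. Without TNFSF9 and CD70 the sum of the other 9 ligands was 6.37 and 5.99 RPKM in the mock clones, against 6.92, 6.57 and 6.003 in the edited clones, so the groups overlapped.

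**Figure D3:**
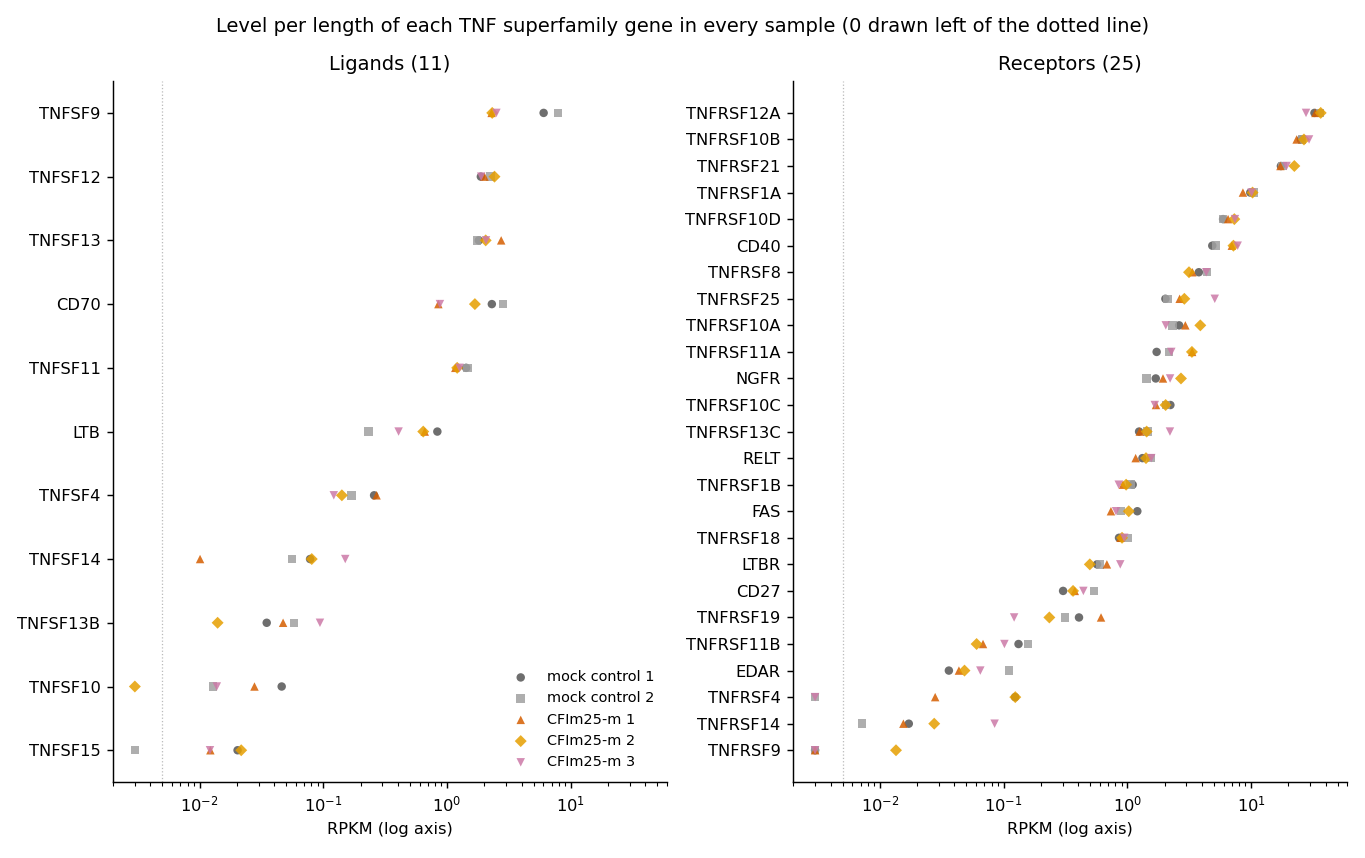
Points give the level of each of the 36 members in each of the 5 samples in RPKM, on a log axis, with ligands on the left and receptors on the right, ordered by their mean. TNFRSF12A, TNFRSF10B and TNFRSF21 lie highest, at means of 33.1, 26.1 and 18.9, and of the ligands TNFSF9 lies highest, with the mock clones to the right of the edited clones.

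Receptors were the more abundant side of the families. Their summed level was 117 and 123 RPKM in the mock clones, against 118, 135 and 127 in the edited clones, so the groups overlapped. TNFRSF10B, TNFRSF12A and TNFRSF21 held 56.4% of all reads of the 36 genes. Of 25 receptors 20 were tested and 0 were called by limma-trend, edgeR or DESeq2. At an unadjusted p under 0.05 in limma-trend, 0 receptors were lower and 4 higher, beside 7.15% and 7.99% of all tested genes. The median log2 difference of the 20 tested receptors was -0.06, with 11 negative and 9 positive.

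Among the death domain receptors, TNFRSF10B (TRAIL receptor 2) had the highest level per length. Its normalized count was 2817 and 2875 in the mock clones, against 2500, 2900 and 3045 in the edited clones. The mock clones lay within the range of the edited clones, and the log2 difference was -0.02 (95% interval -0.25 to 0.21, adjusted p = 0.948). TNFRSF21 (death receptor 6) had 1352 and 1400 in the mock clones, against 1289, 1690 and 1398 in the edited clones, a log2 difference of 0.07 (95% interval -0.20 to 0.34). TNFRSF1A, the main receptor of TNF itself, had 852 and 905 in the mock clones, against 715, 865 and 812 in the edited clones. It differed by -0.14 on the log2 scale (95% interval -0.40 to 0.11), so for these 3 receptors a change of 1 log2 unit either way lies outside the interval. TNFRSF10A (TRAIL receptor 1) had 167 and 149 in the mock clones, against 180, 241 and 121 in the edited clones, with edited clone 3 under both mock clones and the other edited clones above them. FAS, the receptor of Fas ligand, had 111 and 82.0 in the mock clones, against 65.1, 91.8 and 69.3 in the edited clones, a log2 difference of -0.35 (adjusted p = 0.525), and its groups overlapped.

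TNFRSF25 (death receptor 3), whose ligand is TNFSF15, was counted at 188 and 196 in the mock clones, against 236, 260 and 438 in the edited clones. The groups did not overlap, and edited clone 3 stood apart from the other edited clones. Its group means were 192 ± 5.68 (SD, n = 2) and 311 ± 110 (SD, n = 3), a log2 difference of 0.64 (standard error 0.24, 95% interval 0.11 to 1.17), which did not pass the threshold (adjusted p = 0.24, limma-trend). TNFRSF25 shares 104 bases with PLEKHG5 on the same strand, which had 1150 and 1240 in the mock clones, against 1151, 1132 and 1841 in the edited clones. Edited clone 3 was thus the highest sample for both overlapping genes, and the part of shared reads in this was not tested. TNFRSF25 also shares 582 bases with ESPN on the opposite strand.

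NGFR (p75), a receptor of neurotrophins, had 152 and 128 in the mock clones, against 167, 237 and 185 in the edited clones. All edited clones lay above both mock clones, with edited clone 1 nearest to them. The group means were 140 ± 16.8 (SD, n = 2) and 196 ± 36.1 (SD, n = 3), a log2 difference of 0.47 (standard error 0.19, 95% interval 0.05 to 0.90, adjusted p = 0.281, limma-trend). EDAR, the receptor of ectodysplasin, was below the filter with 3 to 11 reads per sample. Of 7 tested death domain receptors, 0 were lower and 2 higher at an unadjusted p under 0.05, beside 7.15% and 7.99% of all tested genes. The median log2 difference of the 7 was 0.07.

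Both decoy receptors of TRAIL were tested. TNFRSF10D had 454 and 453 in the mock clones, against 479, 545 and 526 in the edited clones, which did not overlap, at a log2 difference of 0.19 (95% interval -0.07 to 0.44, adjusted p = 0.476). TNFRSF10C had 89.9 and 83.0 in the mock clones, against 66.1, 80.1 and 62.5 in the edited clones, also without overlap and in the opposite direction, at a log2 difference of -0.32 (adjusted p = 0.525). TNFRSF10A, TNFRSF10B, TNFRSF10C and TNFRSF10D are close relatives in sequence and lie side by side on chromosome 8, so reads they share could be assigned to the wrong gene. TNFRSF11B (osteoprotegerin), the decoy for TNFSF11, had 7 and 10 reads in the mock clones, against 4, 4 and 6 in the edited clones and was not tested.

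Among the receptors that bind TRAF adaptors, TNFRSF12A (Fn14), the receptor of TNFSF12, had the highest level per length of the 36 genes. Its normalized count was 1298 and 1437 in the mock clones, against 1270, 1419 and 1031 in the edited clones, a log2 difference of -0.15 (95% interval -0.45 to 0.15, adjusted p = 0.626). The gene shares 1627 bases with CLDN6 on the opposite strand, which had a normalized count between 10476 and 12467. Without a stated strand setting, part of the TNFRSF12A reads could be those of CLDN6.

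CD40, known from B cells and dendritic cells as the receptor of CD40 ligand, had 265 and 285 in the mock clones, against 367, 383 and 395 in the edited clones. The groups did not overlap, and the spread within each was small. The group means were 275 ± 13.9 (SD, n = 2) and 382 ± 14.3 (SD, n = 3), a log2 difference of 0.47 (standard error 0.12, 95% interval 0.20 to 0.75), short of the threshold (adjusted p = 0.0985, limma-trend). Without edited clone 3 the adjusted p was 0.0498 at a log2 difference of 0.45 (limma-trend). Leaving out edited clone 1 or 2 instead gave 0.50 and 0.47, with an adjusted p of 0.182 and 0.14. Calls over all tested genes were 533 lower and 536 higher without edited clone 3, beside 180 and 181 with all 5 samples. CD40 (ENSG00000101017, chromosome 20, plus strand, 46118272 to 46129863) overlaps no listed gene.

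TNFRSF11A (RANK), the receptor of TNFSF11, had 335 and 422 in the mock clones, against 624, 629 and 410 in edited clones 1, 2 and 3. Edited clones 1 and 2 lay above both mock clones, while edited clone 3 lay between them, so the groups overlapped. The group means were 379 ± 61.0 (SD, n = 2) and 554 ± 125 (SD, n = 3), a log2 difference of 0.53 (standard error 0.19, 95% interval 0.10 to 0.96, adjusted p = 0.233, limma-trend). Without edited clone 3 the log2 difference was 0.74 and the adjusted p was 0.00628 (limma-trend). Leaving out edited clone 1 or 2 instead gave 0.43 each, with an adjusted p of 0.424 and 0.331. As given for CD40, calls over all tested genes also rose without edited clone 3, to 533 lower and 536 higher.

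TNFRSF8 (CD30), a surface protein of Hodgkin lymphoma and embryonal carcinoma cells, had 305 and 355 in the mock clones, against 261, 248 and 326 in the edited clones. The groups overlapped through edited clone 3, at a log2 difference of -0.25 (adjusted p = 0.483). TNFRSF19 (TROY) was the tested member whose edited clones differed most among themselves by the coefficient of variation, with 45.0 and 34.7 in the mock clones, against 65.1, 25.2 and 12.5 in the edited clones. Its log2 difference was -0.50 with an interval from -1.74 to 0.73. The other tested receptors of this group, TNFRSF13C, RELT, TNFRSF1B, TNFRSF18, LTBR and CD27, had log2 differences between -0.31 and 0.17, with an adjusted p of 0.515 or more. Of these TNFRSF1B, the second receptor of TNF, had groups that did not overlap, with 89.9 and 86.9 in the mock clones, against 72.2, 77.4 and 64.4 in the edited clones. TNFRSF4 and TNFRSF14 were below the filter, with 0 to 11 reads per sample.

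**Figure D4:**
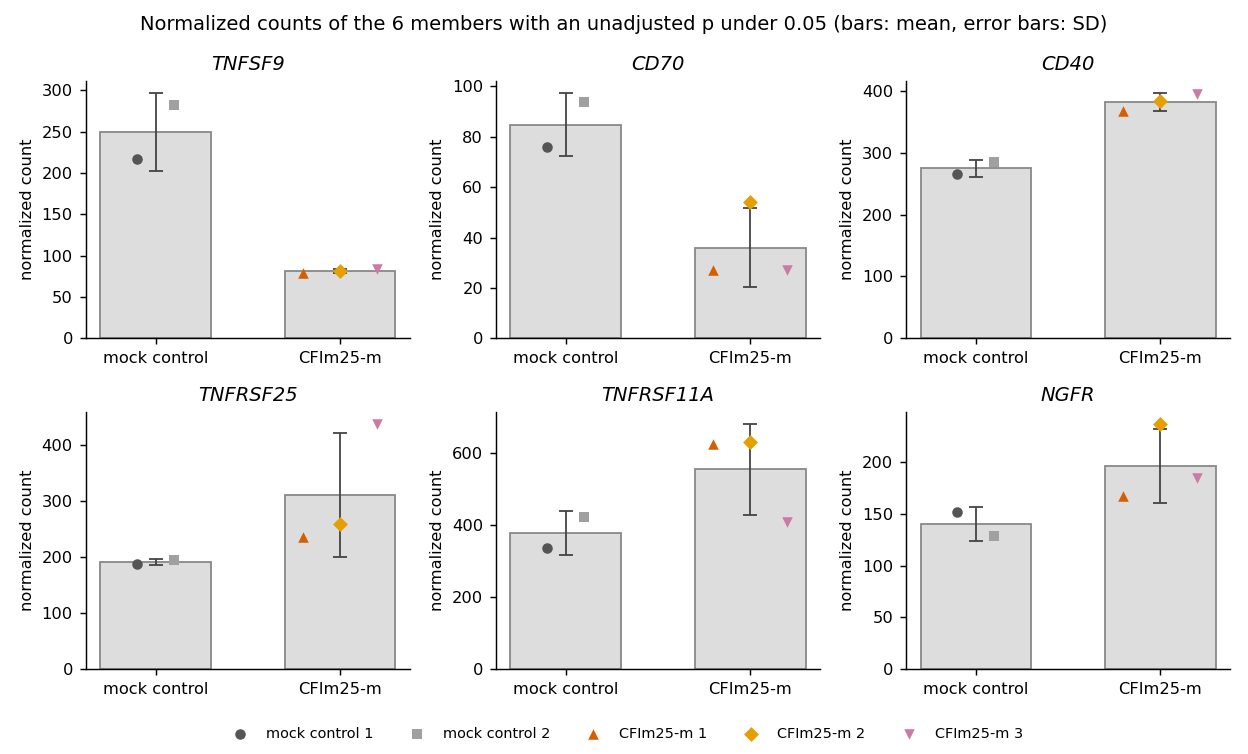
Normalized counts of the 6 members with an unadjusted p under 0.05, with bars at the mean of each group, error bars for the SD and a symbol for each sample (2 mock control, 3 CFIm25-m), on vertical axes that start at 0. The edited clones of TNFSF9 lie together near 81.3 and those of CD40 near 382, while 1 edited clone stands apart for CD70 (clone 2), TNFRSF25 (clone 3) and TNFRSF11A (clone 3).

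Set out as 15 known ligand and receptor pairs within the families, both sides were tested for 4, the receptor alone for 7, the ligand alone for 3 and neither for 1. The 4 pairs were CD70 with CD27, TNFSF11 with TNFRSF11A, TNFSF12 with TNFRSF12A and LTB with LTBR. In level per length, TNFRSF12A was 15.9 times its ligand TNFSF12, and TNFRSF11A was 1.96 times TNFSF11. CD27 was at 0.237 times the level of CD70. All 4 TRAIL receptors were tested while TNFSF10, their ligand, had 0 to 3 reads per sample. No gene of the 4 pairs passed the test. In 20 of the 27 tested members the 95% interval lay within 1 log2 unit of 0 on both sides. The median absolute log2 difference between the mock clones was 0.22 over the tested members and 0.10 over all tested genes.

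The genes that carry the signal onward were examined as 5 lists of 70 genes, of which 66 were listed and 58 tested. Of the 58, 1 was called lower and 1 higher, beside 0.936% and 0.941% of all tested genes. At an unadjusted p under 0.05 in limma-trend, 9 of the 58 were lower and 4 higher, beside 7.15% and 7.99% of all. The median log2 difference of the 58 was -0.13, beside -0.01 over all tested genes. These all-gene values also stand beside each list below. Among adaptors and caspases at the receptors, 0 of 16 were called by limma-trend, edgeR or DESeq2, with 3 at an unadjusted p under 0.05 in limma-trend, and the median was -0.15. FADD, which links death domains to caspase 8, had 496 and 498 in the mock clones, against 400, 425 and 307 in the edited clones, without overlap (log2 difference -0.41, adjusted p = 0.239). TRAF4, a TRAF family adaptor, had a log2 difference of -0.26 (adjusted p = 0.324). TRADD and RIPK3 were below the filter.

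In the ubiquitin and kinase steps, 0 of 14 were called by the same 3 tools, with 3 at an unadjusted p under 0.05 in limma-trend, and the median was -0.11. TNFAIP3 (A20), which restrains NF-kB signalling, had 68.0 and 80.1 in the mock clones, against 35.1, 53.1 and 51.0 in the edited clones (log2 difference -0.68, adjusted p = 0.267). TAB1, a partner of the kinase MAP3K7, had a log2 difference of -0.23 (adjusted p = 0.272). Both genes had edited clones under both mock clones.

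Of 12 NF-kB subunits, inhibitors and their kinases, 0 were called by limma-trend and edgeR and 1, RELB, by DESeq2. DESeq2 called 279 lower and 349 higher over all tested genes, and had the highest share of false calls on simulated counts. In limma-trend 3 of the 12 had an unadjusted p under 0.05, and the median was -0.19. RELB, a subunit of the noncanonical pathway that CD40, LTBR and TNFRSF11A use, had 486 and 478 in the mock clones, against 330, 336 and 233 in the edited clones. The groups did not overlap, at a log2 difference of -0.70 (standard error 0.17, adjusted p = 0.0745, limma-trend; adjusted p = 0.0133, DESeq2). BCL3, a nuclear protein of the inhibitor family, had 111 and 127 in the mock clones, against 59.1, 77.4 and 60.6 in the edited clones, also without overlap (log2 difference -0.85, adjusted p = 0.0915). RELA and NFKB1, of the canonical pathway, had log2 differences of 0.06 and 0.02.

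Of 14 NF-kB target genes 11 were listed and 7 tested, and IER3, an early response gene, was the 1 called, with a list median of -0.10. IER3 had 153 and 161 in the mock clones, against 275, 510 and 350 in the edited clones. Its mean rose from 157 ± 5.56 (SD, n = 2) to 378 ± 120 (SD, n = 3), a log2 difference of 1.21 (adjusted p = 0.0279, limma-trend), which rests on both mock clones, since the adjusted p was 0.198 without mock clone 1 and 0.15 without mock clone 2. SOD2, a mitochondrial superoxide dismutase, had a log2 difference of -0.19 (adjusted p = 0.436). Of 9 tested partners outside the families, LINGO1, a co-receptor that joins NGFR or TNFRSF19 in the Nogo receptor complex, fell from 2758 ± 95.01 (SD, n = 2) to 1996 ± 57.4 (SD, n = 3). Its log2 difference was -0.47 (adjusted p = 0.0291, limma-trend), with 2691 and 2826 in the mock clones, against 2033, 2025 and 1930 in the edited clones. The call was lost without mock clone 1 (adjusted p = 0.347), mock clone 2 (0.487), edited clone 1 (0.084) or edited clone 2 (0.06).

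**Figure D5:**
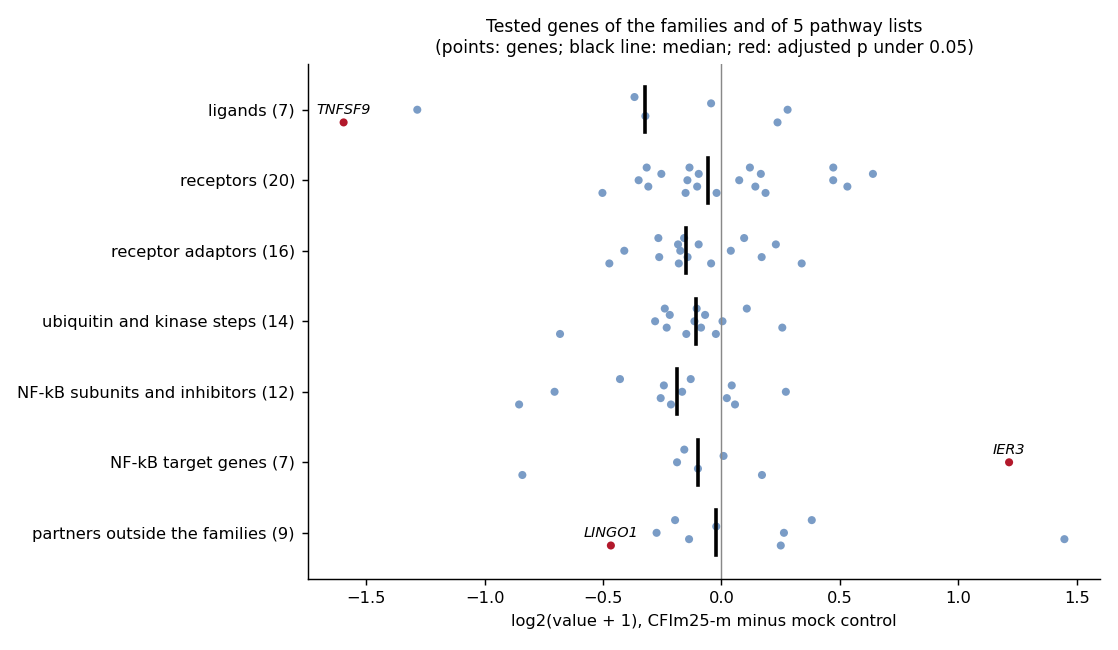
Points are tested genes, placed by the log2 difference between CFIm25-m and mock control, in rows for the 7 ligands, the 20 receptors and the 5 pathway lists, with a black line at each row's median and genes of an adjusted p under 0.05 in red. The ligand row has the lowest median, -0.32, which is the value of TNFSF11 (adjusted p = 0.494, limma-trend). TNFSF9, IER3 and LINGO1 are the 3 genes past the threshold.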

How the data were processed

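Poly(A+) RNA of 2 mock control and 3 CFIm25-m samples of H9 cells was sequenced by the authors, and groups and replicate numbers were taken from the labels. The authors deposited normalized counts, a signal in which the reads of a gene are divided by the size factor of the library. The submitters' processing notes name HISAT2, featureCounts, Subread, DESeq2 and hg38, while versions, annotation release and strand setting are not given in the sources used here. The deposited columns of group means, log2 fold changes and p-values hold the authors' own comparison and were not used. Within 2% of the value of 1 read, 100% of the values were whole multiples of it, so reads were recovered by division.

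Genes that reached 10 normalized counts in 2 or more samples (19232) were tested, two-sided, with limma 3.58.1 (R 4.3.3; linear fit with empirical Bayes moderation and a trend of variance with mean) on log2(value + 1), with Benjamini-Hochberg adjustment over all of them and a threshold of 0.05. This scale understates changes of low genes. Alternatives were the edgeR 4.0.16 quasi-likelihood test and the DESeq2 1.42.0 Wald test on recovered reads, TMM and total count scaling, other filters and pseudocounts, no variance trend, the replicate number as a block, and leaving out 1 sample at a time. The limma-trend, edgeR and DESeq2 tests, but not the other alternatives, were tested on simulated counts with known changes, where the share of false calls was above the threshold of 0.05 with each and highest with DESeq2. With 2 samples against 3 there are 10 arrangements, so no permutation test was used, and p-values measure the spread between these clones.

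Levels between genes are RPKM from recovered reads and the deposited gene length. A count of 0 allows up to 3 reads, which covers counting error only. Promoters are from RefSeq (GRCh38.p14), and primer positions were found in GENCODE release 44 transcripts. The members and gene lists were chosen with earlier results of these data known. Members were named when they had an adjusted or unadjusted p under 0.05, when groups did not overlap at a log2 difference of 0.5 or more, when they were among the 5 ligands or 10 receptors of highest level, as a partner of such a member, or as 1 of the 5 untested members with the most reads. From each pathway list the called genes and the 2 of lowest p were named. The other genes given by name, among them FAS, LTB, TNFSF4, TNFSF10, TNFRSF1B, TNFRSF10C, TNFRSF19, TUBB4A, C3, RELA and NFKB1, were chosen after their values were seen. A gene of the list of partners outside the families is not reported here.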

Additional observations from a re-analysis of the deposited data

How the results depend on the processing

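TNFSF9 was called in every alternative but the one without mock control replicate 2, where its adjusted p was 0.0868. Without 1 sample, members called lower numbered 0 to 2, the second being CD70 without CFIm25-m replicate 2, and members called higher 0 to 2, these being CD40 and TNFRSF11A without CFIm25-m replicate 3. Over all genes, leaving out 1 sample gave 34 to 533 lower and 25 to 536 higher calls, beside 180 and 181. The 533 lower and 536 higher calls were those without CFIm25-m replicate 3, the setting in which CD40 and TNFRSF11A were called. Without CFIm25-m replicate 2, where CD70 was called, 125 genes were lower and 96 higher. Without the variance trend 25 were lower and 21 higher, and with DESeq2 279 and 349. The median log2 difference of members ranged from -0.136 to -0.006 without 1 sample, that of ligands from -0.6218 to -0.1377 and that of receptors from -0.0857 to 0.0389. The median of members was -0.0296 with total count scaling, which moved the median of all genes by 0.07, and -0.0323 with a filter at 50, where that of receptors was 0.0749.

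The direction turned for 4 named members near 0. TNFSF12 was at 0.0242 with total count scaling and between -0.1769 and 0.0892 without 1 sample. TNFRSF10B was at 0.0481 with total count scaling, at 0.0047 with edgeR and between -0.08 and 0.0624 without 1 sample. Without 1 sample TNFRSF21 ranged from -0.0358 to 0.1594 and TNFRSF10A from -0.0912 to 0.4025. The cause was not tested.

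The replicate numbers do not pair the samples, since deviations from the group means correlated at 0.0072 and 0.018 for the 2 shared numbers. With the replicate block, CFIm25-m replicate 3 has no partner, so its estimates equal those without that clone. The block called 1064 genes lower and 1043 higher, 2 members lower (TNFSF9, CD70) and 3 higher (CD40, TNFRSF11A, NGFR), with a ligand median of -0.1377 and TNFSF12 at 0.048. NUDT21, IER3 and LINGO1 were not called without the variance trend or without either mock control, and LINGO1 also not without CFIm25-m replicate 1 or 2. Depth limits the 9 untested members, with 0 to 15 reads per sample, and LTB, TNFSF4 and CD27, with 8 to 24.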
